A study of Homo sapiens with 6 samples.

Results

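The TCF/LEF factors and their nuclear partners in canonical Wnt signaling were described in MDA-MB-231 cells with and without a knockdown of Ror1. The 10 genes, TCF7, TCF7L1, TCF7L2, LEF1, BCL9, BCL9L, PYGO2, TLE1, TLE3 and CTBP1, were chosen by symbol among the 57445 Ensembl genes of the deposited table, and each matched 1 gene. MDA-MB-231 is an established, triple-negative human breast cancer line. All cells carried a pGIPZ lentiviral vector and were selected with puromycin at 2 µg/ml. The shCTL cells (3 libraries) expressed a non-silencing control shRNA and the shRor1 cells (3 libraries) an shRNA against Ror1. The sample labels call the control an empty vector, and the header of the control columns alone holds the word DMSO, so that a solvent given to the control cells only cannot be told apart from the knockdown. The knockdown rests on 1 shRNA sequence, and nothing in the labels says whether the libraries came from separate cultures, so that p-values measure only the spread between these libraries.

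In canonical Wnt signaling, stabilized β-catenin enters the nucleus and binds the TCF/LEF proteins, which sit on DNA through an HMG box. BCL9 and BCL9L link β-catenin to the PYGO proteins, which read methylated histone H3, and together these act as co-activators. Without β-catenin the TCF/LEF proteins recruit TLE proteins (the human Groucho homologs), which repress transcription, and CTBP1 is a further co-repressor. Wnt5a and its receptors Ror1 and Ror2 act mainly without β-catenin and can inhibit the canonical branch.

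Levels are given in TPM, transcripts of a gene per 1000000 transcripts, which is corrected for gene length and allows levels of different genes to be compared. Libraries are named by the order of their columns within a condition, because the columns carry no replicate number. The study states a number of mapped reads for each replicate, but these could not be tied to single columns and the table holds no read counts, so no counting interval is given. Between 16036 and 17033 genes reached 1 TPM in a library. The markers of mesenchymal breast cells were high in every library (VIM from 2399 to 2920 TPM), and of the luminal markers ESR1 and PGR stayed at or below 0.21 TPM while KRT8 and KRT18 were abundant (403.6 to 594.6 TPM and 456.8 to 502.9 TPM). Of 6 lymphocyte markers, 5 stayed at or below 0.39 TPM, MS4A1 being listed at 0, whereas CD8A had 3.49 to 4.72 TPM.

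The targeted gene ROR1 had 15.42, 13.49 and 20.56 TPM in shCTL and 9.34, 11.93 and 14.85 TPM in shRor1. Its log2 fold change was -0.43 with a 95% interval from -0.88 to 0.03, and the groups overlapped. The unadjusted p was 0.065 and the adjusted p 0.984 from limma, and the exact two-sided permutation p was 0.2. Leaving out the third shCTL library gave -0.26 and leaving out the first shRor1 library -0.27 (unadjusted p = 0.206 and 0.207 from limma). Without the second shCTL library it was -0.55 and without the third shRor1 library -0.58 (unadjusted p = 0.0349 and 0.01945 from limma). Without the first shCTL library it was -0.46 and without the second shRor1 library -0.43. ROR1 was not called in any of these fits. The value was -0.48 with median ratio scaling and -0.49 with quantile normalization. There, in that order, the unadjusted p was 0.0233 and 0.0151 and the adjusted p 0.998 and 0.999 from limma. The mRNA of the targeted gene was thus lower on average, but not called.

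None of the 10 nuclear factors was called as different between shRor1 and shCTL. Of the 16554 genes tested with limma, 0 (0.0%) had an adjusted p below 0.05, and 472 (2.85%) had an unadjusted p below 0.05. Of the 10 factors, 0 reached either limit, and the smallest unadjusted p was 0.173, for PYGO2. The groups did not overlap for 7.78% of all tested genes and for 0 of the 10 factors. Of the 10 factors, 5 had a positive and 5 a negative log2 fold change, and their median was 0.00 against 0.05 over all tested genes. With median ratio scaling the split was 2 and 8, and with quantile normalization 3 and 7, where the median over all genes was 0.00. The group difference was smaller than the larger of the 2 within-group ranges for 10 of the 10 factors, and smaller than both ranges for 9, the exception being PYGO2. The share of all tested genes that met this was not counted, so these counts show nothing particular to the factors. Expression in bulk RNA cannot separate fewer expressing cells from less RNA per cell.

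**Figure D1:**
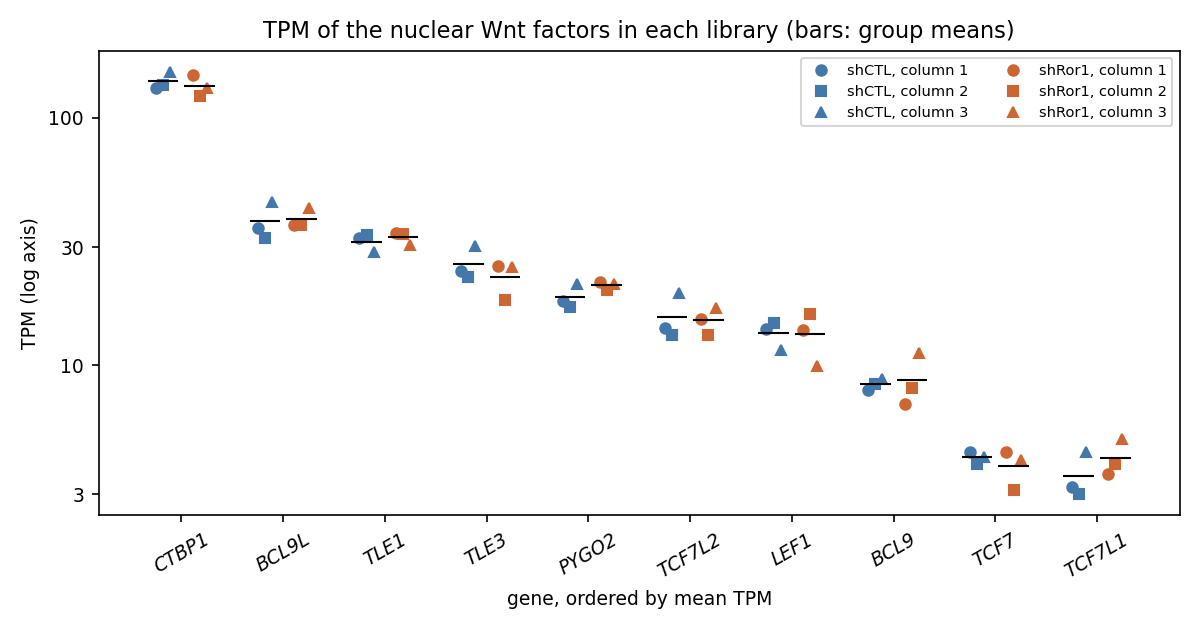
TPM (log axis) of the 10 factors in each of the 6 libraries, with shCTL in blue, shRor1 in orange, symbols for the order of the columns and black bars for group means. CTBP1 lies above all others at 122.2 to 153.6 TPM, TCF7 and TCF7L1 lie lowest, and the 2 groups overlap for every gene.

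The order of the levels was led by CTBP1, with a mean of 137.6 TPM over the 6 libraries, and its lowest library lay above the highest library of any other factor. BCL9L (38.6 TPM), TLE1 (32.3 TPM), TLE3 (24.3 TPM), PYGO2 (20.0 TPM), TCF7L2 (15.4 TPM), LEF1 (13.4 TPM) and BCL9 (8.54 TPM) followed. Each of these neighbours overlapped in range with the next, although BCL9L exceeded TLE1 in 5 of 6 libraries and PYGO2 exceeded TCF7L2 in 6 of 6. BCL9 was separated from TCF7 (4.07 TPM) without overlap. TCF7 and TCF7L1 (3.89 TPM) were not separated, with TCF7 higher in 3 of 6 libraries.

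Among the DNA-binding factors, TCF7L2 and LEF1 supplied most of the transcripts in both conditions. TCF7L2 (ENSG00000148737.11, chr10:114710006-114927437 of GRCh37, plus strand), the TCF best known from intestinal epithelium, had 14.07, 13.22 and 19.61 TPM in shCTL and 15.39, 13.25 and 16.98 TPM in shRor1. All of the shRor1 values lay inside the control range, with the third library of each condition the highest. Its mean was 15.6 ± 3.47 TPM in shCTL and 15.2 ± 1.87 TPM in shRor1 (SD, n = 3 each), and the log2 fold change was -0.02 (standard error 0.16, interval from -0.40 to 0.35, adjusted p = 0.994 from limma). LEF1 (ENSG00000138795.5, chr4:108968701-109090112, minus strand), a factor of lymphocytes and of several carcinomas, had 14.06, 14.81 and 11.50 TPM in shCTL and 13.88, 16.09 and 9.95 TPM in shRor1. Here the third library of each condition was the lowest and the second the highest. The log2 fold change was -0.03 (standard error 0.18, interval from -0.45 to 0.38, adjusted p = 0.992 from limma). The spread of LEF1 between libraries within conditions was larger than that of 81.6% of all tested genes.

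Within each condition, the 2 leading factors varied in opposite directions from library to library. The ratio of LEF1 to TCF7L2 was 0.999, 1.12 and 0.586 in shCTL and 0.902, 1.21 and 0.586 in shRor1, so that LEF1 exceeded TCF7L2 in 2 of 6 libraries, 1 in each condition. The mean ratio was 0.902 ± 0.280 in shCTL and 0.901 ± 0.314 in shRor1 (SD, n = 3 each). The sum of both genes ranged from 26.9 to 31.1 TPM, and a link between the 2 genes was not tested. The third library of each condition, where the ratio was lowest at 0.586, also had the most genes at or above 1 TPM. These were 16597 in shCTL and 17033 in shRor1, and the part of this in the ratio was not tested.

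TCF7 and TCF7L1 were expressed at a lower level. TCF7 (ENSG00000081059.15, chr5:133450372-133487556, plus strand), known as TCF-1 from T cells and itself a Wnt target, had 4.47, 3.99 and 4.24 TPM in shCTL and 4.46, 3.12 and 4.14 TPM in shRor1. Only the second shRor1 library lay below the controls, and the log2 fold change was -0.10 (standard error 0.14, interval from -0.43 to 0.23, adjusted p = 0.984 from limma) and 0.02 without that library. Exons of TCF7 overlap those of SKP1 on the opposite strand, which had 455.1 to 512.9 TPM, and whether the counting used the strand is not given in the sources used here. TCF7L1 (ENSG00000152284.4, chr2:85360515-85537510, plus strand), known as TCF-3 and mostly a repressor, had 3.22, 3.00 and 4.47 TPM in shCTL and 3.63, 3.99 and 5.04 TPM in shRor1. The third library was the highest in each condition, and 1 shRor1 library lay above all controls. Its log2 fold change of 0.20 was the most positive of the 10 factors (standard error 0.17, interval from -0.20 to 0.59, adjusted p = 0.984 from limma), and it was 0.09 without the third shRor1 library and 0.34 without the third shCTL library.

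Summed over the 4 genes, TCF/LEF transcripts had 35.8, 35.0 and 39.8 TPM in shCTL and 37.4, 36.5 and 36.1 TPM in shRor1. The sum had a coefficient of variation of 4.58% over the 6 libraries, whereas the single genes had 12.3% (TCF7) to 19.8% (TCF7L1). A sum of several genes tends to vary less than its parts by averaging alone. Whether this sum varied less than sums of other genes was not tested. TCF7L2 made up 42.1% ± 6.24 of the sum in shCTL and 41.5% ± 5.34 in shRor1, and LEF1 36.8% ± 7.03 and 36.3% ± 8.33 (SD, n = 3 each). TCF7 contributed 11.5% ± 0.92 and 10.7% ± 1.83, and TCF7L1 9.59% ± 1.43 and 11.5% ± 2.18. The sums are of genes, and the short TCF7 and LEF1 isoforms that lack the β-catenin binding end cannot be told from the long ones in gene-level values.

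**Figure D2:**
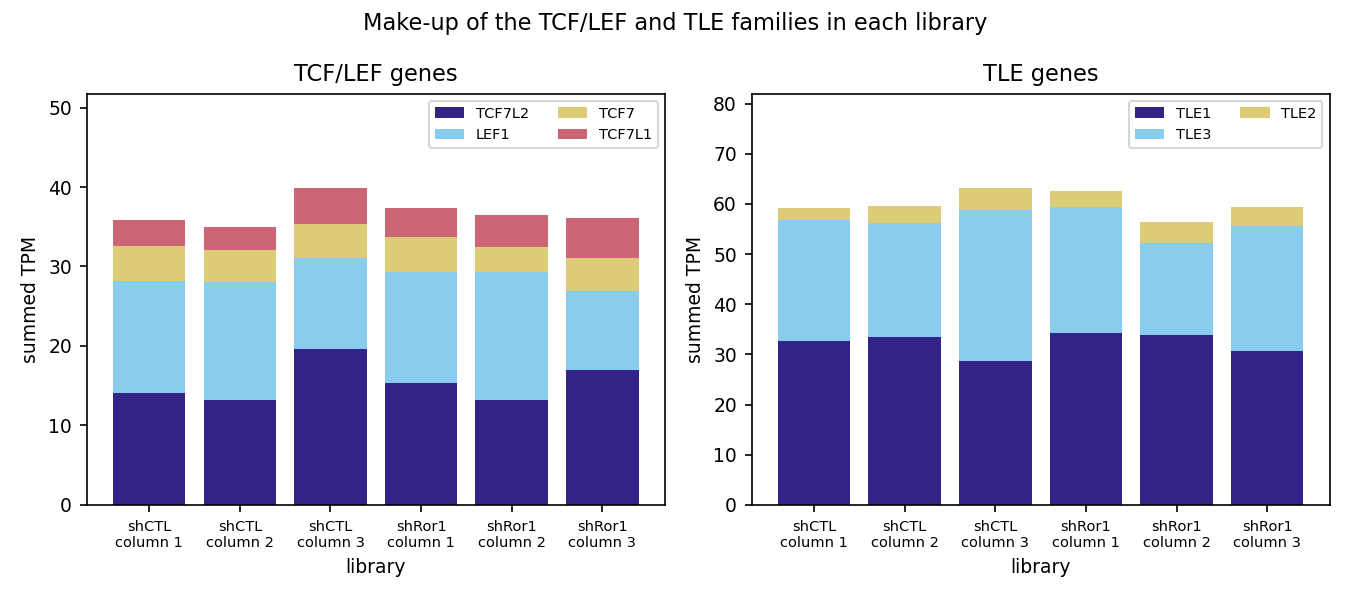
Stacked TPM of the TCF/LEF genes (left) and of TLE1, TLE2 and TLE3 (right) in each of the 6 libraries, in the order of the columns. The TCF/LEF total ranges from 35.0 to 39.8 TPM, and the third library of each condition has the largest TCF7L2 and the smallest LEF1 segment.

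TCF/LEF proteins bind DNA words close to CTTTGAT, and TCF7 is among the genes they are known to regulate, so the promoters of the factors were searched for the word CTTTGAA or CTTTGAT or CTTTGTA or CTTTGTT on both strands. The RefSeq promoter table (GRCh38.p14, 250 bases before to 50 after each start) held 16 promoters for 9 of the 10 genes. Of these, 2 (12.5%) contained a word, against 4829 of all 35116 promoters (13.8%). One lay 50 bases before the second listed start of TCF7 (chr5:134123558-134123584, minus strand), and the other 133 bases before the second listed start of TCF7L2 (chr10:113126490-113126516, plus strand). In the list of 25 Wnt target genes, only 13 had promoters there, 15 in number, and the remaining genes were not searched. Of the 15, 3 contained a word (20.0%), namely those of SP5, DKK1 and MMP7. For comparison, 1 window each of SP5 (chr2:170715218-170715244, plus strand) and DKK1 (chr10:52314176-52314202, plus strand) is shown. Each window is printed with the word in capitals and 10 bases on each side, on the strand that carries the word. A word is a match of letters and says nothing of binding in these cells.
TCF7: ctctctcctcCTTTGTTccagtggggc
TCF7L2: aaatatcaggCTTTGTTcttttgattg
SP5: agccgctattCTTTGATgattgggtag
DKK1: cctcccagcgCTTTGAAatcccatccc

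The co-activators were not called either. BCL9L (ENSG00000186174.8, chr11:118764584-118796635, minus strand), which bridges β-catenin and PYGO, had 36.03, 32.69 and 45.71 TPM in shCTL and 36.96, 37.05 and 43.11 TPM in shRor1. All shRor1 values lay within the control range. Its log2 fold change was 0.04 (standard error 0.13, interval from -0.27 to 0.35, adjusted p = 0.987 from limma). BCL9 (ENSG00000116128.5, chr1:147013271-147098017, plus strand), its paralog, had 7.95, 8.40 and 8.75 TPM in shCTL and 6.93, 8.06 and 11.17 TPM in shRor1. The shRor1 values were the more dispersed, with 1 below and 1 above all controls, and the log2 fold change was 0.03 (standard error 0.16, interval from -0.35 to 0.41, adjusted p = 0.992 from limma). BCL9L made up 79.4% to 84.2% of the transcripts of the pair in every library.

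PYGO2 (ENSG00000163348.3, chr1:154929502-154936329, minus strand), which binds histone H3 methylated at lysine 4 through its PHD finger, had the smallest p of the 10 factors. It had 18.24, 17.17 and 21.32 TPM in shCTL and 21.69, 20.20 and 21.31 TPM in shRor1. The first and second shCTL libraries were the low ones, while the third lay among the shRor1 values. The mean was 18.9 ± 2.16 TPM against 21.1 ± 0.77 TPM (SD, n = 3 each), the log2 fold change 0.15 (standard error 0.10, interval from -0.08 to 0.39, adjusted p = 0.984 from limma) and the exact two-sided permutation p = 0.3, where 3 against 3 libraries cannot go below 0.1. The value depended on single shCTL libraries. It was 0.24 without the third (unadjusted p = 0.0517 from limma) and 0.09 without the second (unadjusted p = 0.467 from limma). In GENCODE 44, a later annotation than that of the study, PYGO2 shares exonic sequence with SHC1 on the same strand (147.4 to 194.0 TPM), and whether reads were divided between both was not tested. The paralog PYGO1 had 6.81 to 9.13 TPM and a log2 fold change of 0.11 (adjusted p = 0.984 from limma), and PYGO2 made up 68.0% to 75.7% of the PYGO transcripts.

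Among the co-repressors, TLE3 had the most negative and TLE1 a small positive value. TLE1 (ENSG00000196781.9, chr9:84198598-84304462, minus strand) had 32.64, 33.57 and 28.64 TPM in shCTL and 34.25, 33.86 and 30.64 TPM in shRor1. The first and second shRor1 libraries lay above all controls by less than 1 TPM, and the log2 fold change was 0.06 (standard error 0.09, interval from -0.16 to 0.27, adjusted p = 0.984 from limma). TLE3 (ENSG00000140332.11, chr15:70340129-70390515, minus strand) had 24.14, 22.65 and 30.22 TPM in shCTL and 25.20, 18.31 and 24.97 TPM in shRor1. Only the second shRor1 library lay below the controls, and the log2 fold change of -0.17 (standard error 0.16, interval from -0.53 to 0.20, adjusted p = 0.984 from limma) became -0.02 without it and -0.05 without the third shCTL library. TLE2 was low (2.50 to 4.23 TPM), and TLE4 was at or below 0.05 TPM in every library.

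Of the transcripts of TLE1 to TLE4, TLE1 and TLE3 together thus carried nearly all. The sum over TLE1 to TLE4 was 60.7 ± 2.10 TPM in shCTL and 59.5 ± 3.14 TPM in shRor1 (SD, n = 3 each), and TLE1 made up 52.3% ± 5.97 and 55.4% ± 4.28 of it. The TLE sum was 1.55 to 1.70 times the TCF/LEF sum in all 6 libraries. TLE5 (AES), the short family member that lacks the WD repeats and can oppose the others, was far more abundant at 305.8 to 396.1 TPM, and its log2 fold change was 0.09 (adjusted p = 0.984 from limma).

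CTBP1 (ENSG00000159692.11, chr4:1205233-1244121, minus strand), an NADH-sensing co-repressor, had 132.75, 135.75 and 153.64 TPM in shCTL and 149.12, 122.15 and 132.03 TPM in shRor1. The second and the third shRor1 library lay below all controls and the first between them. The log2 fold change was -0.07 (standard error 0.10, interval from -0.29 to 0.16, adjusted p = 0.984 from limma), and it was -0.001 when the second shRor1 library was left out and -0.003 without the third shCTL library. CTBP2 had 40.3 to 45.9 TPM with a log2 fold change of -0.04 (adjusted p = 0.986 from limma), and CTBP1 made up 73.7% to 78.2% of the pair. Exons of CTBP1 overlap those of CTBP1-DT on the opposite strand (9.64 to 11.4 TPM).

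**Figure D3:**
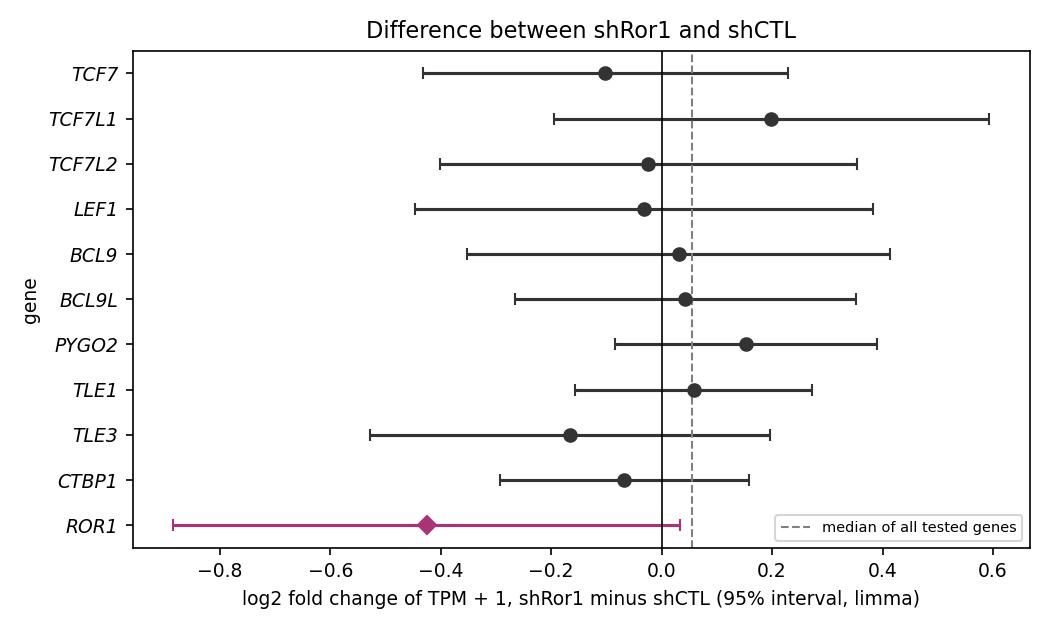
Log2 fold change of TPM + 1 (shRor1 minus shCTL) with 95% intervals from limma for the 10 factors and, as a diamond, ROR1. Every interval includes 0, and the dashed line marks the median of all tested genes at 0.05.

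The intervals were computed for each gene alone, without adjustment for the number of genes tested. A change as large as the limits of an interval could still fail the adjusted threshold. The intervals therefore do not set how large a change these libraries could have missed. The narrowest intervals belonged to TLE1 (from -0.16 to 0.27), PYGO2 and CTBP1. The widest belonged to LEF1 and TCF7L1 (up to 0.59), and all are on the log2(TPM + 1) scale. This scale understates changes of genes with few TPM such as TCF7 and TCF7L1. Of the 10 factors, 7 varied more within conditions than the median tested gene.

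Several factors were highest or lowest in the same libraries. TCF7L1, TCF7L2, BCL9 and BCL9L, 4 of the 10, were highest in the third library of both conditions, and LEF1 and TLE1 were lowest there. In shRor1, 5 of the 10 factors were lowest in the second library. The same counts over all genes were not made, so these show nothing particular to the factors. The order of the columns does not pair libraries between conditions. JUP (plakoglobin, a relative of β-catenin) varied most among the related genes, with 5.85, 8.55 and 18.03 TPM in shCTL and 5.66, 12.96 and 29.72 TPM in shRor1. The genes whose pattern over the 6 libraries was closest to that of TCF7L2, by the root mean square difference of centred log2 values among 11143 genes with a mean of at least 5 TPM, were GGA3 (0.03), EVI5L (0.03) and CAPN10 (0.04). TCF7L2 itself deviated by 0.19 around its mean.

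Of 40 other genes of the nuclear Wnt step, 39 were tested and 0 passed the adjusted threshold in either direction, nor did any have an unadjusted p below 0.05. Of these, 27 had a positive and 12 a negative log2 fold change, where 67.0% of all tested genes were positive, and their median was 0.05 as for all genes. CTNNB1, the β-catenin gene, had 176.63, 184.02 and 186.80 TPM in shCTL and 175.68, 190.77 and 205.16 TPM in shRor1, a log2 fold change of 0.06 (interval from -0.12 to 0.24, adjusted p = 0.984 from limma). Its mRNA was 4.69 to 5.68 times the TCF/LEF sum. The 5 largest values were 0.40 for JUP, -0.16 for RUVBL2 (an AAA+ ATPase), 0.15 for HIPK2 (a kinase), 0.13 for TLE2 and 0.11 for PYGO1, with adjusted p = 0.984 from limma for each. The most abundant were DDX5 and XRCC6, with log2 fold changes of 0.01 and -0.01, followed by TLE5. The groups did not overlap for 1 of the 39, below the 7.78% of all tested genes. This was XIAP, a ubiquitin ligase, which was named after its values were seen and had 18.79 to 19.17 TPM in shCTL and 19.18 to 21.88 TPM in shRor1.

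Of 25 widely used β-catenin/TCF target genes, 15 were tested and 0 passed the adjusted threshold or had an unadjusted p below 0.05. Of these, 8 had a positive and 7 a negative log2 fold change with a median of 0.01, and the groups did not overlap for 0 of them. The levels of the targets ranged widely. CD44 (359.2 to 534.2 TPM), CCND1 (204.4 to 254.5 TPM), FOSL1 (181.0 to 280.0 TPM), BIRC5 (145.9 to 175.0 TPM) and MYC (80.9 to 107.5 TPM), genes that many other pathways also drive, were abundant. AXIN2, a negative feedback gene, had 2.02 to 2.79 TPM, SP5 2.48 to 3.31 TPM and ZNRF3, a ubiquitin ligase for Frizzled receptors, 4.93 to 6.08 TPM, while LGR5, RNF43, NKD1 and NOTUM stayed at or below 0.18 TPM and NKD2, WIF1 and ASCL2 were listed at 0. DKK1, a secreted inhibitor of LRP co-receptors and the gene with the promoter window shown above, had 328.25, 333.76 and 324.86 TPM in shCTL and 345.83, 332.62 and 320.72 TPM in shRor1. Within conditions 1.78% of all tested genes varied less than DKK1, and its log2 fold change was 0.02 (interval from -0.13 to 0.16). The largest values were 0.13 for BAMBI, 0.08 for TNFRSF19, -0.06 for CD44, -0.06 for ZNRF3 and -0.06 for SP5, and FOSL1, an AP-1 subunit, had 0.01 (adjusted p from 0.984 to 0.996 from limma for these genes and DKK1).

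**Figure D4:**
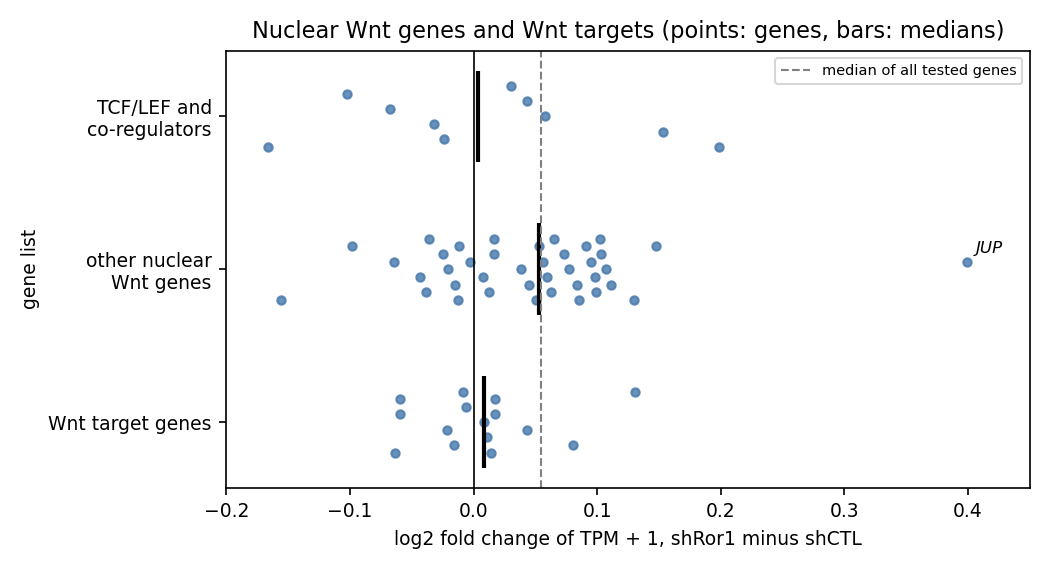
Log2 fold change of TPM + 1 (shRor1 minus shCTL) of each tested gene in the 3 lists, with 10, 39 and 15 genes, and black bars for the medians. The genes gather between -0.17 and 0.20 around the dashed median of all tested genes, with JUP at 0.40 as the exception.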

How the data were processed

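RNA of 6 MDA-MB-231 libraries was sequenced with a strand-specific kit. The authors aligned them with STAR to GRCh37 (Ensembl 73) and estimated gene abundances with RSEM (version 1.2.5 in the submitters' processing notes). The deposited values are TPM with 2 decimals, although the table is called expected counts; each column sums to 1000000 within 1, and they hold no depth. Unused per-sample columns numbered 0.

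A gene was tested if it reached 1 TPM in 3 or more libraries (16554 of 57445). Log2(TPM + 1) values of shRor1 and shCTL were fitted with limma 3.58.1 in R 4.3.3, using the mean-variance trend, and p-values were adjusted by Benjamini-Hochberg over all genes at 0.05. Intervals are limma's at 95%. The fit was run on simulated data with independent noise for each gene. The outcome is not reported here, and nothing is drawn from it. Symbols (55022 identifiers) and GRCh37 coordinates and exon overlaps came from GENCODE 44 (not the study's annotation), promoters from RefSeq on GRCh38.p14. Protein sequences were not used here, and 1 planned marker gene is not reported here.

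The genes and lists were chosen with earlier results of these data known. Named are all 10 factors, ROR1, CTNNB1 and family partners, the 5 largest log2 fold changes and the 3 highest means of each list, and the 3 genes most like TCF7L2. Others named were chosen after their values were seen, as were the exon-sharing partners. Alternatives are given in the closing section.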

Additional observations from a re-analysis of the deposited data

How the results depend on the processing

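No paired analysis was possible because libraries of a condition share 1 column header and show no number. Over 14 alternative fits (a pseudocount of 0.1, no filter, a mean of at least 5 TPM, median ratio scaling, quantile normalization, rescaling over protein-coding genes, array weights, no trend, and each of the 6 libraries left out), 0 of the 10 factors, 0 of the other nuclear Wnt genes and 0 of the Wnt targets passed the adjusted threshold, and the smallest adjusted p of a factor was 0.578. The number among all genes was 0 in 13 of them and from 0 to 1 with a library left out, the 1 without the third shRor1 library. TCF7 and TCF7L1 had no value at a mean of at least 5 TPM. With a library left out, the mean TCF7L2 share ran from 40.3% to 42.9% and the LEF1 share from 35.0% to 38.3%. Such means share most of their libraries, so small shifts were bound to follow and do not test the make-up of the families. The share of TLE4 was not run.

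TCF7L1, PYGO2, TLE3 and CTBP1 kept their direction wherever they were tested. The other 6 changed sign, and the cause was not tested. With median ratio scaling the log2 fold changes were -0.024 for BCL9, -0.017 for BCL9L and -0.0013 for TLE1, with quantile normalization -0.043 for BCL9 and -0.001 for BCL9L, and with array weights 0.023 for TCF7L2. With a library left out they ran from -0.185 to 0.019 for TCF7, -0.128 to 0.140 for TCF7L2, -0.172 to 0.149 for LEF1, -0.143 to 0.166 for BCL9, -0.058 to 0.177 for BCL9L and -0.010 to 0.107 for TLE1. Over all genes the median moved from 0.05 to 0.00 under either scaling. ROR1 stayed lower, from -0.58 (without the third shRor1 library) to -0.26 (without the third shCTL library).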
